A study of Homo sapiens with 2 samples.

Results

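The cells described here are the UMUC3 tumour cells of a control library that held the most EDIL3, TNC and KITLG messenger RNA. UMUC3 is an established line from a human bladder carcinoma. The cells were chosen among barcodes with at least 15000 unique molecular identifiers (UMIs, each standing for a captured mRNA molecule) and at most 20% mitochondrial UMIs. In the chosen cells the 3 genes together reached at least 300 CPM, which stands for UMIs of the gene per 1000000 UMIs of the cell. This was so in 952 of 4385 control cells, of 7057 cells in the whole series, and they are called high cells. They were set against the 1641 control cells under 100 CPM, called low cells, and the remaining 1792 control cells lay between. Since the 3 genes chose the cells, their own difference is a description, and so is every other difference between high and low cells of this library.

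The study profiled a pair of cell populations by droplet single-cell sequencing of 3' transcript ends, with 1 library each. In one of them GANAB had been knocked down. Its product is the catalytic chain of glucosidase II, which removes glucose from freshly attached N-glycans in the endoplasmic reticulum (ER). The other was labelled as control. Both consisted of UMUC3 cells that had been implanted into the bladders of C57 nude mice, an immunodeficient host, and recovered after 14 days. The sources used here do not say how the knockdown was made, how many mice were used or whether mouse reads were removed. The GANAB knockdown library held 155064055 UMIs and 2672 cells that passed the filter, and the control library held 239857346 UMIs and 4385 cells. Only 4 cell barcodes passed in both libraries, of which 1 was a high control cell. With 1 library per group there is no replicate check, cells are not replicates, and no p-values are given. Intervals are exact 95% intervals of counting error alone.

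EDIL3 encodes a secreted glycoprotein that binds integrins and phosphatidylserine and was first described around developing blood vessels. TNC encodes tenascin C, a large multi-arm protein of the extracellular matrix that is scarce in most adult tissues and abundant in healing wounds and tumour stroma. KITLG encodes stem cell factor, the ligand of the receptor tyrosine kinase KIT, which is made as a membrane protein and can be shed. All of them act outside the cell that makes them or at its surface.

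The promoters of the selection genes are shown because the 3 transcripts were summed although the genes lie on different chromosomes. Each runs from 250 bases before to 50 bases after the start of the gene, as given by RefSeq on GRCh38.p14, and all are on the minus strand. EDIL3 is at chr5:84384831-84385130, TNC at chr9:115118108-115118407 and KITLG at chr12:88580422-88580721. Capitals mark matches to the letters searched on both strands, which were TATAAA (the TATA box), TGANTCA (AP-1), GGAATG (TEAD), TTTGAA (the cell cycle element CHR) and CCAAT.
EDIL3: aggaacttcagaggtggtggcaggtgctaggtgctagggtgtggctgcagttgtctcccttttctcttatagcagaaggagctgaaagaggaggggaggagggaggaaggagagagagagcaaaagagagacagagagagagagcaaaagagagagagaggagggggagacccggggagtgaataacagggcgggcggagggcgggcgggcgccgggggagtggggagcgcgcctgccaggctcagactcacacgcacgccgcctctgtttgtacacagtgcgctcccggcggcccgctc
TNC: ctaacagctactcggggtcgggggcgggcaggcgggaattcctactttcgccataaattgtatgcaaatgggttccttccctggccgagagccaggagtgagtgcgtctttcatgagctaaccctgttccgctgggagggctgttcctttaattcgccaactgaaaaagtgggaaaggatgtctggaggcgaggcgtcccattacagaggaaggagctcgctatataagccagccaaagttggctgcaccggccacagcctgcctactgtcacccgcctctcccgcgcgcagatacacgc
KITLG: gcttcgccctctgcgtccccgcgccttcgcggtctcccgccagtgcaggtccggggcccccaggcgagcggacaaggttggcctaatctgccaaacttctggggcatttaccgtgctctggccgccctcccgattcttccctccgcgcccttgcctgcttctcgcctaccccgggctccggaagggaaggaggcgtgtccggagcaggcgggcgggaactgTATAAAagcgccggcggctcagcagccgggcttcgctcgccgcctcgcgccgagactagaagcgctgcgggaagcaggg
Among 27305 promoters of the same length, 12% held TATAAA, 7.76% TGANTCA, 14.0% GGAATG, 15.4% TTTGAA and 35.7% CCAAT. KITLG held TATAAA, starting 29 bases before the gene start, and no other match was found in the 3 windows. Only exact letters were searched, so near forms, such as tatataag in the TNC window, were not matched.

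EDIL3 supplied most of the selection signal. Summed over high cells it stood at 355 CPM (349 to 361), against 35.8 CPM (34.6 to 37.1) in low cells, and 99.4% of high cells against 69.6% of low cells had at least 1 EDIL3 UMI. TNC stood at 84.5 CPM in high cells (81.5 to 87.6), against 4.79 in low cells (4.34 to 5.27), and was detected in 68.1% of high and 17.9% of low cells. KITLG stood at 70.4 CPM in high cells (67.7 to 73.3), against 8.79 in low cells (8.18 to 9.43), and was detected in 75.7% of high and 31.9% of low cells. The median depth was 34195.5 UMIs in high cells and 51808 in low cells, so these shares were not taken at equal depth. With each cell thinned to 15000 UMIs, TNC was detected in 52.7% of high and 6.76% of low cells and KITLG in 53.4% of high and 10.8% of low cells. Barcodes with at most 100 UMIs, which mostly hold free RNA, carried EDIL3 at 122 CPM, TNC at 28.1 and KITLG at 32.2 in the control library. No cell type that should lack the 3 genes was large enough to give a background share. Low cells lay below the free RNA level for each of the 3 genes.

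The boundary of 300 CPM cut through a continuous distribution. In the control library 112 cells lay between 300 and 330 CPM and 128 between 270 and 300, while 163 lay between 100 and 110 and 172 between 90 and 100. The median high cell held 17 UMIs of the 3 genes together, and 315 low cells held none. High cells are therefore given here as a range of expression, and whether they form a separate type was not tested. In the GANAB knockdown library 210 of 2672 cells reached 300 CPM, which is 7.86% (Clopper-Pearson interval 6.87 to 8.95), against 952 of 4385 or 21.7% (20.5 to 23.0) in the control library. At the other end 80.6% of knockdown cells and 37.4% of control cells lay under 100 CPM.

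**Figure D1:**
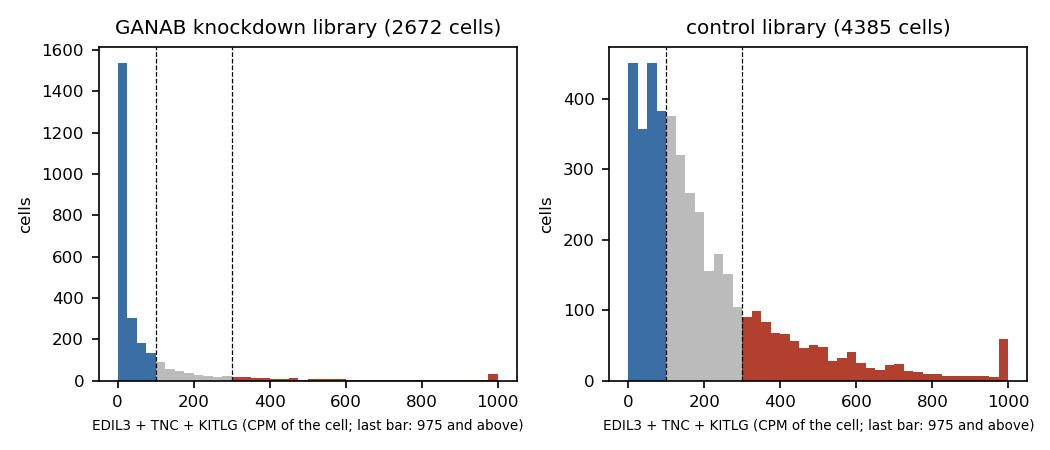
Number of cells (vertical axis) by the summed EDIL3, TNC and KITLG level of the cell in CPM (horizontal axis, bins of 25 CPM), for the GANAB knockdown library (left, 2672 cells) and the control library (right, 4385 cells). Red bars are cells of at least 300 CPM (210 in the knockdown library and 952 in the control library), blue bars are cells under 100 CPM, and the distribution has no gap at either dashed line.

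How many of the 3 genes were detected together is a description, since their sum chose the classes. All were detected in 493 of the 952 high cells (51.8%), a pair of them in 377 (39.6%) and a single one in 82 (8.61%), whereas all were detected in 80 of 1641 low cells (4.88%). EDIL3 alone reached 300 CPM in 573 high cells, TNC alone in 66 and KITLG alone in 23. When cells were chosen at the same thresholds on only 2 of the genes, the gene left out still differed. TNC stood at 64.1 CPM in 769 cells chosen on EDIL3 and KITLG (61.2 to 67.1), against 12.5 CPM in the 1852 cells under 100 CPM (11.8 to 13.2). KITLG stood at 61.1 CPM in 773 cells chosen on EDIL3 and TNC, against 17.2 in 1979 cells. EDIL3 stood at 374 CPM in 150 cells chosen on TNC and KITLG, against 107 in 3576 cells. By the gene left out, the levels of the 3 transcripts thus moved together across cells of the control library.

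Choosing cells on a count exaggerates the gap in that count. Each cell's UMIs were therefore split at random into 2 equal sets, with cells chosen on one set and read on the other. The 987 cells chosen as high had 518 CPM of the 3 genes in the choosing set and 449 CPM (439 to 459) in the other. The 1738 cells chosen as low had 42.8 CPM in the choosing set and 79.3 CPM (76.8 to 81.9) in the other. In the unused set 69.7% of the high cells again reached 300 CPM, and 4.15% fell under 100 CPM. Of the low cells, 68.1% were again under 100 CPM and 3.45% reached 300 CPM.

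High cells were checked against marker genes of the labelled tissue and of other cell types. Of 12 UMUC3 tumour cell markers, 11 reached 10 CPM in high cells and 11 in low cells. Summed fibroblast markers (8 genes) stood at 25.3 CPM in high cells and 14.4 in low cells. The largest was COL1A1 with 9.78 CPM in high and 6.39 in low cells, while DCN and LUM were at 0 in high cells. Cells with at least 100 CPM of fibrillar collagen genes made up 1.05% of high and 0.914% of low cells. Endothelial markers (7 genes) summed to 0.0848 CPM in high and 0.102 in low cells, with PECAM1 and VWF at 0 in high cells. Smooth muscle and pericyte markers summed to 20.2 CPM in high and 10.6 in low cells, nearly all of it ACTA2 with 16.1 CPM in high cells, and macrophage and monocyte markers to 19.4 in high and 32.9 in low cells, nearly all of it CD68. T and NK cell markers summed to 0.198 CPM in high and 3.37 in low cells. The neutrophil list summed to 34.3 CPM in high and 200 in low cells, of which G0S2 alone gave 33.0 in high and 199 in low cells, while CSF3R and MPO were at 0 in high cells. Normal urothelium markers summed to 4.95 CPM in high and 1.05 in low cells. The largest was KRT5 with 3.84 CPM in high and 0.215 in low cells, while UPK1B, UPK3A and KRT20 were at 0 in high cells. B and plasma cell, mast cell, erythroid, and Schwann cell and melanocyte markers summed to at most 3.08 CPM in either. High cells thus carried the tumour cell markers about as low cells did, with a list sum of 21756 CPM in high and 23142 in low cells. TMSB10 alone gave 8893 CPM of that sum in high cells, so its size is not comparable with the sums of the other lists. Whether a few of the high cells were of another type was not tested.

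High cells were shallower than low cells and mostly scored as G1. Phases were scored from lists of S phase and of G2 and mitosis genes after thinning. G1 was assigned to 840 of 952 high cells, 88.2% (86.0 to 90.2), against 448 of 1641 low cells, 27.3% (25.2 to 29.5). S phase was assigned to 8.19% of high and 40.2% of low cells, and G2 or mitosis to 3.57% of high and 32.5% of low cells. Only 30 high and 254 low cells lay within 0.02 score units of a boundary. Free RNA also enters such scores, and its part in them was not tested. Median genes per cell were 5375.5 in high and 6144 in low cells, and the median mitochondrial share was 1.44% in high and 1.53% in low cells. Barcodes with under 0.2% mitochondrial UMIs made up 6.93% of high and 14.1% of low cells. A group of cells marked by SPANXB1, FAM133A and TMEM132D-AS1 (at least 100 CPM together, called subclone-like) made up 7.35% of high cells and 18.6% of low cells. Depth, cycling and the share of subclone-like cells thus differed together with the level of the 3 genes, and counts in G1 cells alone are given beside many of the gene lists.

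Differences between high and low control cells ran in both directions across the genome. A gene was counted as measured at 10 CPM in either class, which left 7930 genes beside the selection genes, and was called higher or lower when the classes differed by at least 1.5-fold. By this rule of size, which is not a test, 1168 genes were higher in high cells (14.7%) and 1028 were lower (13.0%), with a median log2 ratio of 0.04. With genes measured only at 50 CPM, 299 were higher and 495 were lower. The targeted gene GANAB did not take part, with 127 CPM in high and 124 CPM in low cells (log2 ratio 0.03, -0.02 to 0.08).

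ADGRL3, which encodes the adhesion receptor latrophilin 3, stood at 59.6 CPM in high cells (57.1 to 62.2), against 11.6 CPM in low cells (10.9 to 12.4), a log2 ratio of 2.36 (2.25 to 2.47). With cells thinned to 15000 UMIs, 52.4% of high and 15% of low cells had an ADGRL3 UMI, and unthinned the shares were 75.7% of high and 37.7% of low cells. Other genes of the higher side also encode proteins of the cell surface. PTPRD, a receptor tyrosine phosphatase, stood at 54.0 CPM in high and 13.5 in low cells, and CA12, a membrane carbonic anhydrase, at 110 in high and 26.8 in low cells.

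Others encode secreted or lysosomal proteins. CLU, the secreted chaperone clusterin, stood at 1661 CPM in high cells (1648 to 1675) and 447 in low cells (442 to 451), a log2 ratio of 1.89. PSAP, the precursor of the lysosomal saposins, stood at 2278 CPM in high cells and 628 in low cells, a log2 ratio of 1.86. LTBP1, which holds latent TGF-beta in the matrix, stood at 87.9 CPM in high and 22.5 in low cells. TSC22D1, a transcription regulator first found as a TGF-beta-induced gene, stood at 547 CPM in high and 127 in low cells, and LPCAT2, a lysophospholipid acyltransferase, at 66.4 in high and 15.3 in low cells. TRPS1, a GATA-type transcriptional repressor, stood at 75.3 CPM in high and 21.8 in low cells. HIST1H2BD, a histone H2B gene, stood at 57.0 CPM in high and 16.8 in low cells, and IFI6, an interferon-induced gene, at 109 in high and 32.8 in low cells. All 12 genes with the largest ratio on this side among those of at least 50 CPM in high cells stayed at least 1.5-fold higher when only G1 cells were used and when subclone-like cells were left out.

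On the lower side, among genes of at least 50 CPM in low cells, the largest ratio belonged to VSTM1, which encodes an inhibitory immunoglobulin-type receptor known from leukocytes. It stood at 4.49 CPM in high cells and 67.4 CPM in low cells, a log2 ratio of -3.90 (-4.14 to -3.68), with a UMI in 11.7% of high and 65.0% of low cells. Most of the others act in mitosis or DNA synthesis. UBE2C, the ubiquitin-conjugating enzyme of the anaphase-promoting complex, stood at 101 CPM in high and 935 in low cells (log2 ratio -3.21), and CDC20, an activator of that complex, at 26.3 in high and 177 in low cells. BIRC5 (survivin) stood at 24.4 CPM in high and 154 in low cells, the ribonucleotide reductase subunit RRM2 at 13.3 in high and 81.3 in low cells, and thymidine kinase TK1 at 18.5 in high and 106 in low cells. CDCA3, PBK, NUF2 and HMMR, all of mitosis, had log2 ratios between -2.92 (CDCA3) and -2.54 (HMMR).

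Among the 12 lowest, G0S2 and FOSL1 stood with VSTM1 outside the cell cycle genes. G0S2, which encodes an inhibitor of adipose triglyceride lipase, stood at 33.0 CPM in high cells and 199 in low cells, and FOSL1, the AP-1 subunit Fra-1, at 13.6 in high and 79.9 in low cells. In G1 cells alone 7 of the 12 were still at least 1.5-fold lower. Of these VSTM1 stood at 3.35 CPM in high and 25.6 in low G1 cells, G0S2 at 28.5 in high and 144 in low, FOSL1 at 11.5 in high and 33.9 in low, and UBE2C at 36.2 in high and 251 in low. The other 5 (CDCA3, RRM2, PBK, NUF2 and HMMR) were under 10 CPM in both classes of G1 cells and so were not measured there.

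**Figure D2:**
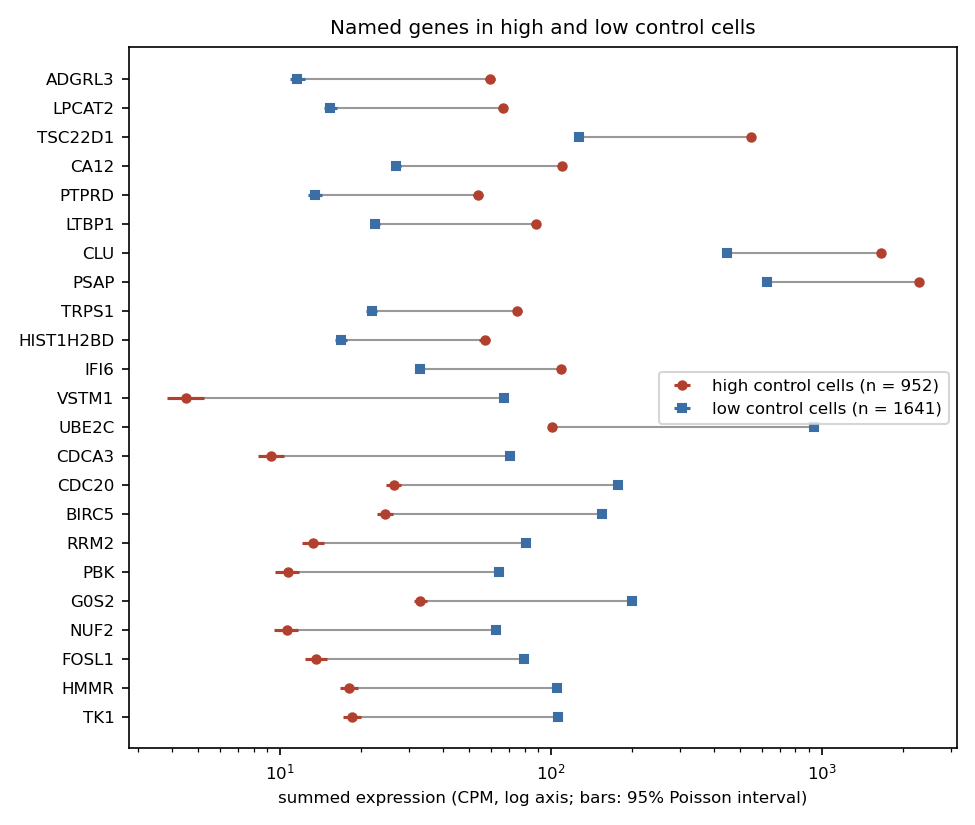
Summed expression in CPM (horizontal log axis) of 23 genes chosen by the size of their ratio, in the 952 high control cells (red circles) and the 1641 low control cells (blue squares), with 95% Poisson intervals that are mostly narrower than the symbols. ADGRL3 stood at 59.6 CPM in high and 11.6 in low cells, and VSTM1 at 4.49 in high and 67.4 in low cells.

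Promoters of 3 of the genes that were lower in high cells are shown because they hold matches to the letters of the CHR and CCAAT elements, which are known from promoters of mitotic genes. CDCA3 is at chr12:6851237-6851536 on the minus strand, CDC20 at chr1:43358731-43359030 and HMMR at chr5:163460382-163460681, both on the plus strand (RefSeq, GRCh38.p14, same window as above). Capitals mark TTTGAA and CCAAT on either strand, so that TTCAAA and ATTGG are matches as well.
CDCA3: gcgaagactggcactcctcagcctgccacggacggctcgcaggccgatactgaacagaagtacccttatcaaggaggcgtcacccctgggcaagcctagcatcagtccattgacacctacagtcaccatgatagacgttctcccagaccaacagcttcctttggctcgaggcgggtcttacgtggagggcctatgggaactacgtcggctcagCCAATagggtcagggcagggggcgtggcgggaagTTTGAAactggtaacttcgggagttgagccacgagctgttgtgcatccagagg
CDC20: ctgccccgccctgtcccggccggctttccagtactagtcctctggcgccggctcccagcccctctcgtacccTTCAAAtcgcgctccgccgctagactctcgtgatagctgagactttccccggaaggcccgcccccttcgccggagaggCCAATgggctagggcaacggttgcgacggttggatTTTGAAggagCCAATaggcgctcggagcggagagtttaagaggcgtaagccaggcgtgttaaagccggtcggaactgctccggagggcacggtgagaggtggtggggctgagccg
HMMR: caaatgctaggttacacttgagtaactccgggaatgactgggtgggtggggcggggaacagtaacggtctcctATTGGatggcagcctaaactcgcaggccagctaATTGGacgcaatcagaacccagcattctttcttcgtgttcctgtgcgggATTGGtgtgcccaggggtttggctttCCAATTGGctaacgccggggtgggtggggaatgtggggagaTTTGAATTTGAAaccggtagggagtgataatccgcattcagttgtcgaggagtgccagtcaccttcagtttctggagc
A RefSeq promoter was matched for 7 of the 12 lower genes, and 4 of these held TTTGAA (CDC20, CDCA3, HMMR and NUF2) and 4 held CCAAT (CDC20, CDCA3, HMMR and RRM2), which is 57.1% for each. Of the 12 higher genes 6 were matched, of which 1 held TTTGAA (TSC22D1) and 2 held CCAAT (IFI6 and LTBP1). Over all promoters the shares were 15.4% for TTTGAA and 35.7% for CCAAT. A match describes letters in the window and is not evidence of a bound factor.

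The leading genes were picked by their ratio between high and low control cells, so their direction from the lowest to the upper bins was fixed by that choice. In the bins between, they went in steps rather than at a threshold. From control cells under 100 CPM through 100 to 200, 200 to 300 and 300 to 500 CPM to cells of at least 500 CPM, ADGRL3 stood at 11.6, 22.5, 33.1, 50.9 and 74.1 CPM. CLU stood at 447, 628, 913, 1225 and 2395 CPM and TSC22D1 at 127, 164, 296, 453 and 704 CPM in the same order. UBE2C stood at 935, 654, 306, 138 and 39.5 CPM, and VSTM1 at 67.4, 36.8, 14.4, 5.86 and 2.20 CPM. Each of these 5 genes went one way in every step. GANAB stayed between 124 and 130 CPM. VGF, a secreted neuropeptide precursor, did neither, with 192, 310, 358, 322 and 198 CPM. The share of cells scored S, G2 or mitosis was 72.7%, 59.3%, 33.2%, 16.9% and 4.56% over the same bins, and the median depth was 51808 UMIs in the lowest bin and 31857 in the highest, so cycling and depth moved with the level of the 3 genes throughout. Their part in the gradient was not tested. The G1 cells given below do not remove it, since the classes still differed there in cell cycle transcripts.

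**Figure D3:**
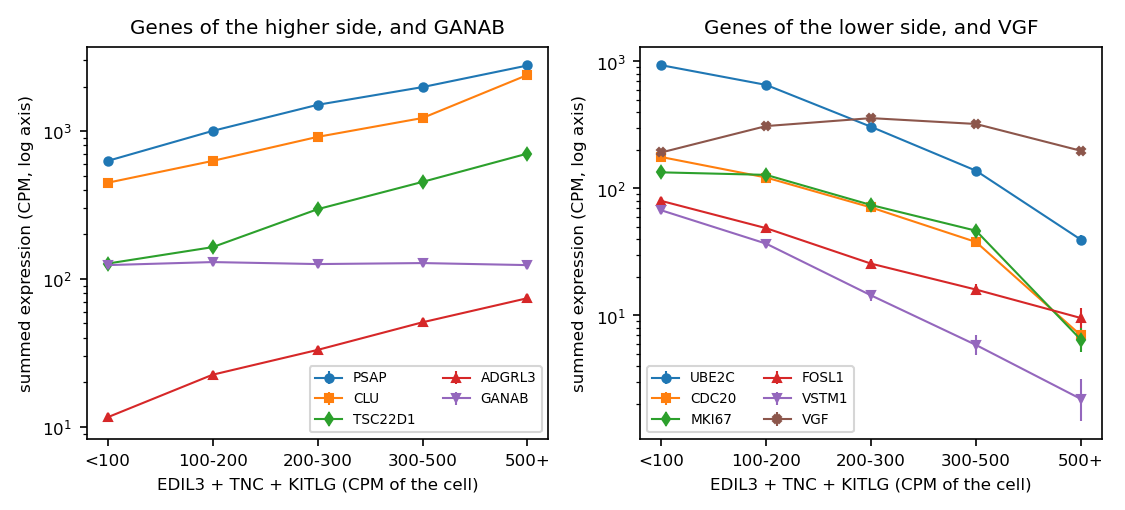
Summed expression in CPM (log axis) of named genes in control cells binned by their EDIL3, TNC and KITLG level (horizontal axis, CPM of the cell; 1641, 1201, 591, 557 and 395 cells), with 95% Poisson intervals. PSAP, CLU, TSC22D1 and ADGRL3 climb through all 5 bins, UBE2C, CDC20, MKI67, FOSL1 and VSTM1 decline, GANAB stays level and VGF is highest in the middle bin with 358 CPM.

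Among G1 cells, 840 high cells were set against 448 low cells. These classes were not matched for cell cycle transcripts. CDC20 stood at 7.20 CPM in high and 28.7 in low G1 cells, and TK1 at 3.98 in high and 16.0 in low. Here 502 of 7686 measured genes were higher (6.53%) and 283 were lower (3.68%), so fewer genes passed the rule than over all phases. ADGRL3 stood at 62.5 CPM in high and 15.9 in low G1 cells, a log2 ratio of 1.97, and CLU at 1787 in high and 796 in low, a log2 ratio of 1.17. Leaving out subclone-like cells as well gave 939 higher (12.2%) and 372 lower genes (4.85%), with ADGRL3 at 64.1 CPM in high and 19.8 in low cells. Without subclone-like cells over all phases, 1310 genes were higher (16.6%) and 1083 were lower (13.7%). Fewer genes thus passed with subclone-like cells included than without them.

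Counts in the gene lists are to be read beside the shares over all measured genes. Over all phases 14.7% were higher and 13.0% lower. In G1 cells 6.53% were higher and 3.68% lower, and in G1 cells without subclone-like cells 12.2% were higher and 4.85% lower. The selection genes' receptors, relatives and shedding enzymes were looked at first. Of 23 listed genes 12 were measured, 3 were at least 1.5-fold higher and none was lower, with a median log2 ratio of 0.35 (0.04 over all measured genes, and -0.01 for this list where genes were measured only at 50 CPM). MMP2, a gelatinase that cleaves matrix proteins, stood at 47.0 CPM in high and 10.9 in low cells (log2 ratio 2.11). ITGAV, the alpha subunit of the integrins that bind EDIL3, stood at 45.1 CPM in high and 25.1 in low cells, and ADAM10, a sheddase, at 58.1 in high and 38.5 in low cells. ITGB5, a partner of ITGAV, was alike in both at 53.9 CPM in high and 55.6 in low cells, and ITGB3, the other classic partner, was at 0.565 CPM in high and 0.204 in low cells. KIT, the receptor of KITLG, was at 0.0283 CPM in high and 0.0226 in low cells, which is 1 UMI in all high and 2 UMIs in all low cells. The tenascin receptor integrin subunits ITGA9 and ITGA8 and the relatives TNN and TNR had no UMI in either class. EGFR stood at 35.2 CPM in high and 30 in low cells and SDC4, a syndecan, at 131 in high and 171 in low cells.

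Of 25 measured matricellular and matrix genes 12 were higher and 2 lower, with a median log2 ratio of 0.57, where 14.7% of all measured genes were higher and 13.0% lower. In G1 cells 6 of 27 were higher and 4 lower (median 0.26), beside 6.53% and 3.68% of all measured genes there. COL6A1, a collagen VI chain, stood at 17.5 CPM in high and 4.76 in low cells, P4HA2, a collagen prolyl hydroxylase subunit, at 89.5 in high and 29.6 in low cells, and the metalloproteinase inhibitor TIMP2 at 158 in high and 63.2 in low cells. Of 6 measured integrins only ITGAV passed, while ITGB1 stood at 876 CPM in high and 630 in low cells. Of 19 mesenchymal genes 8 were higher and 1 lower (6 and 2 of 20 in G1 cells), among them CDH2 (N-cadherin) at 61.0 CPM in high and 27.0 in low cells and S100A4 at 10.2 in high and 3.88 in low cells. Of 6 measured epithelial and urothelial genes 1 was higher and 1 lower. Secreted factors were divided, with 6 of 23 higher and 6 lower. PDGFC stood at 59.4 CPM in high and 22.8 in low cells and VEGFA at 35.2 in high and 13.8 in low cells. Of 13 receptor tyrosine kinases 3 were higher and 1 lower, beside 14.7% and 13.0% of all measured genes, and in G1 cells none was higher and 1 lower. The collagen receptor DDR2 stood at 14.0 CPM in high and 6.21 in low cells.

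TGF-beta and SMAD targets were higher in 16 of 24 cases and lower in 3, beside 14.7% and 13.0% of all measured genes. Their median log2 ratio was 0.70. PMEPA1, a feedback inhibitor of SMAD signalling, stood at 149 CPM in high and 56.8 in low cells, ID3, a helix-loop-helix inhibitor, at 573 in high and 266 in low cells, and LMCD1 at 10.3 in high and 3.66 in low cells. In G1 cells 4 of 23 were higher and 2 lower (6.53% and 3.68% of all measured genes). In G1 cells without subclone-like cells 10 of 23 were higher (12.2% of all measured genes). The list of YAP and TEAD targets also holds factors of the pathway itself. Of its 17 measured genes 2 were higher and 2 lower, and the 2 higher ones were the factors TEAD1 and WWTR1, so no target passed upward. TEAD1 stood at 143 CPM in high and 61.8 in low cells and WWTR1 (TAZ) at 311 in high and 156 in low cells, whereas the classic target CYR61 stood at 572 in high and 386 in low cells. Of 21 MAPK feedback and ETS targets 7 were higher and 3 lower, and in G1 cells none was higher and 3 were lower (median log2 ratio -0.20). The 3 lower ones over all phases were FOSL1, given above, PHLDA2 with 208 CPM in high and 410 in low cells, and ETV4 with 9.47 in high and 18.0 in low cells.

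Immediate early genes were higher in 8 of 19 cases and lower in 1, beside 14.7% and 13.0% of all measured genes. JUNB stood at 273 CPM in high and 134 in low cells and FOSB at 61.1 in high and 25 in low cells. In G1 cells none of 18 was higher and 3 were lower (median log2 ratio -0.06, beside 0.43 over all phases), and JUNB stood at 293 CPM in high and 289 in low cells. NF-kB targets were higher in 4 of 13 cases, with NFKBIZ at 24.9 CPM in high and 8.92 in low cells and SOD2 at 109 in high and 59.8 in low cells. In G1 cells 2 of 14 NF-kB targets were higher and 1 lower, beside 6.53% and 3.68% of all measured genes. Of 7 Notch pathway genes 2 were higher (MAML2 and HES1), with HES1 at 286 CPM in high and 149 in low cells. Of 6 Wnt targets 2 were higher and 1 lower, the lower one being the secreted Wnt antagonist DKK1 with 1.78 CPM in high and 11.1 in low cells.

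Of the 9 measured neurosecretory and neural genes 5 were higher and 1 was lower, with a median log2 ratio of 0.71. The guidance receptor ROBO1 stood at 46.3 CPM in high and 18.2 in low cells, and its relative ROBO2 at 35.8 in high and 7.51 in low cells. NLGN1, a synaptic adhesion protein, stood at 18.4 CPM in high and 3.73 in low cells, and NCAM2 at 25.8 in high and 9.18 in low cells. In G1 cells 4 of 9 were higher.

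Interferon-response genes were higher in high cells in 18 of 23 cases and lower in none, beside 14.7% and 13.0% of all measured genes. Their median log2 ratio was 1.09. BST2 (tetherin) stood at 13.3 CPM in high and 1.88 in low cells, IFIT2 at 10.0 in high and 2.26 in low cells, and IFI27 at 11.4 in high and 3.79 in low cells. In G1 cells 8 of 24 were higher and 2 lower (6.53% and 3.68% of all measured genes). In G1 cells without subclone-like cells 16 of 23 were higher (12.2% of all measured genes). Of 17 genes of MHC class I presentation 6 were higher and none lower (median log2 ratio 0.51), and in G1 cells 2 were higher (median 0.03), with the chaperone TAPBP at 129 CPM in high and 75.7 in low cells and the peptide trimming enzyme ERAP2 at 28.7 in high and 14.6 in low cells over all phases.

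Most cell cycle genes were lower in high cells. Of 41 measured S phase genes 39 were lower in high cells and none was higher (median log2 ratio -1.54), and of 56 G2 and mitosis genes 50 were lower and none was higher (median -1.94). PLK1, a mitotic kinase, stood at 2.85 CPM in high and 24.8 in low cells and CDC45, a replication helicase subunit, at 4.13 in high and 26.7 in low cells. Both lists also scored the phases, so within G1 cells, where 11 of 27 and 10 of 27 were lower, they are not independent of the choice of cells.

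Among lists of growth and metabolism, MYC targets and cholesterol synthesis genes had members lower in high cells and none higher. Of 28 MYC targets 19 were lower and none was higher (median log2 ratio -0.73), with ODC1, the first enzyme of polyamine synthesis, at 99.1 CPM in high and 293 in low cells and NME1 at 229 in high and 513 in low cells. In G1 cells 7 of 28 were lower. Of 23 cholesterol synthesis genes 11 were lower and none was higher, with FDPS at 80.5 CPM in high and 207 in low cells and EBP at 25.4 in high and 63.9 in low cells. In G1 cells 6 of 22 were lower. Of 22 hypoxia and glycolysis genes 5 were higher and 7 lower, with ADM at 8.31 CPM in high and 22.1 in low cells, and PFKP at 43.9 in high and 90.9 in low cells. Of 44 nuclear genes of oxidative phosphorylation 5 were lower, a share near the 13.0% of all measured genes, and of 11 mitochondrially encoded genes none passed in either direction. Of 70 ribosomal protein genes 1 was higher and none was lower, with RPL28 at 7407 CPM in high and 5467 in low cells. ATF4 and CHOP targets were lower in 5 of 17 cases, among them SHMT2 at 23.1 CPM in high and 51.9 in low cells, and higher in 1. In G1 cells 2 of 16 of these targets were lower. NRF2 targets were lower in 3 of 15 cases and higher in 1, and cytosolic heat shock genes lower in 3 of 13.

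The lists next to GANAB hold the ER glucosidases and the glycan processing enzymes that follow them. Of 16 genes of the ER glucosidases and the calnexin cycle only EDEM3, an ER mannosidase-like protein of glycoprotein disposal, was higher, at 33.0 CPM in high and 15.9 in low cells. PRKCSH, the other subunit of glucosidase II, stood at 90.8 CPM in high and 75 in low cells. Of 10 measured Golgi enzymes of N-glycan processing 5 were higher and none lower, with the mannosidases MAN1A1 at 115 CPM in high and 48.7 in low cells and MAN1A2 at 103 in high and 51.1 in low cells, and the galactosyltransferase B4GALT1 at 63.3 in high and 34.7 in low cells. In G1 cells 4 of these 10 were higher (6.53% of all measured genes). In knockdown cells 2 of 16 ER genes and 1 of 9 Golgi genes were higher (13.3% of all measured genes). Of 20 lysosomal genes 8 were higher and 2 lower, with TPP1 at 39.7 CPM in high and 20.1 in low cells and NPC2 at 182 in high and 95.6 in low cells beside PSAP, and in G1 cells 3 of 20 were higher and none lower. Of 22 ER chaperones 2 were higher and 2 lower, beside 14.7% and 13.0% of all measured genes. HSPA5 (BiP) stood at 634 CPM in high and 856 in low cells. Of 13 measured p53 targets 4 were higher and 1 lower, with ZMAT3 at 30.4 CPM in high and 13.5 in low cells. Of 9 genes that set the subclone-like cells apart 3 were higher and 5 lower, with SPANXB1 at 0.707 CPM in high and 31.4 in low cells, and this list was drawn up on these libraries.

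Nuclear noncoding RNA was also more abundant in high cells. MALAT1 stood at 13316 CPM in high and 4393 in low cells, and NEAT1 at 1104 in high and 336 in low cells. Without barcodes under 0.2% mitochondrial UMIs, MALAT1 stood at 13642 CPM in high and 4770 in low cells and NEAT1 at 1136 in high and 363 in low cells, so the difference was about as large without them. Both RNAs were chosen after their values were seen. What part the balance of nuclear and cytoplasmic RNA had in the gene ratios above was not tested.

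High cells differed among themselves by the gene that led them. EDIL3 had the most UMIs of the 3 in 829 high cells, TNC in 77 and KITLG in 29, with ties in 17. CLU stood at 1650 CPM in cells led by EDIL3 (1635 to 1664), 2097 in those led by TNC (2041 to 2155) and 845 in those led by KITLG (792 to 902). TSC22D1 stood at 525 CPM in cells led by EDIL3, 836 in those led by TNC and 501 in those led by KITLG. G0S2 stood at 31.1 CPM in cells led by EDIL3, 18.6 in those led by TNC and 127 in those led by KITLG. The share scored S, G2 or mitosis was 11.0% in cells led by EDIL3, 11.7% in those led by TNC and 34.5% in those led by KITLG, and the group led by KITLG held only 29 cells. VGF stood at 77.3 CPM in cells led by TNC, 291 in those led by EDIL3 and 384 in those led by KITLG.

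When control cells were clustered with the 3 genes removed, high cells gathered in 1 of 8 clusters without filling it. Cluster 2, led by genes such as TSC22D1 and LPCAT2, held 545 high cells, which were 51.3% of its 1063 cells (48.2 to 54.3) and 57.2% of all high cells, beside 100 low cells. In it 2.82% of cells were scored S, G2 or mitosis. Cluster 1, led by VGF and MAN1A1, held 216 high cells (27.6%), and cluster 5, led by G0S2, TSPAN9 and CCL2, held 122 (15.6%). Cluster 3, led by S phase genes such as CDC45, held 30 high cells (4.04%), cluster 6, led by mitotic genes such as PLK1, held 18 (3.81%), and cluster 4, led by TMEM132D-AS1 and SPANXB1, held 7 (2.56%). Cluster 7, with a median mitochondrial share of 0.0177%, held none in 218 cells, which allows a share of up to 1.68%. Cluster 8, led by KRT14 and collagen genes, held 14 of 49 (28.6%, 16.6 to 43.3).

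The leading genes were also read inside clusters. They were picked on these same control cells, so their direction there was in part fixed by that choice. Some of them, such as TSC22D1 and LPCAT2, also led cluster 2. Clusters 4, 6, 7 and 8, with 7, 18, 0 and 14 high cells, were not compared. In each of clusters 1, 2, 3 and 5, the 11 higher genes described above stood above low cells of the same cluster, by log2 ratios from 0.28 (HIST1H2BD in cluster 3) to 2.52 (LPCAT2 in cluster 5). In cluster 3, where nearly all cells were scored S, G2 or mitosis, TSC22D1 stood at 249 CPM in 30 high and 50.4 in 363 low cells. In the same cluster TK1 stood at 163 CPM in high and 174 in low cells and RRM2 at 141 in high and 142 in low cells, so these S phase genes did not differ by the rule there. VSTM1 stood below low cells in all 4 clusters, for example at 17.8 CPM in high and 81.1 in low cells of cluster 3. G0S2 stood at 33.1 CPM in high and 40.9 in low cells of cluster 2, and at 27.3 in high and 278 in low cells of cluster 3.

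**Figure D4:**
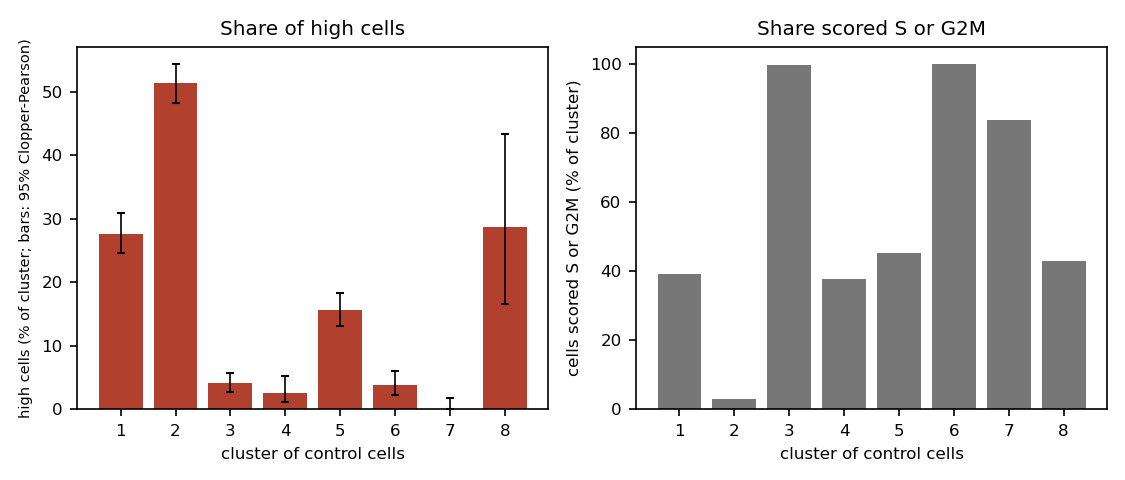
Share of high cells (left, percent of the cluster with 95% Clopper-Pearson intervals) and share of cells scored S, G2 or mitosis (right, percent) in the 8 clusters of control cells made without EDIL3, TNC and KITLG. Cluster 2 holds 51.3% high cells and 2.82% cycling cells, while clusters 3 and 6, with nearly all cells cycling, hold 4.04% and 3.81% high cells.

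The same split was made in the GANAB knockdown library, whose cells had no part in choosing the high control cells. The 210 knockdown cells at or above 300 CPM were set against 2154 under 100 CPM. GANAB itself stood at 55.6 CPM in high and 40.2 in low knockdown cells. EDIL3 was present in few knockdown cells, with a UMI in 16.8% of knockdown and 87.6% of control cells and 43.2 CPM over all knockdown against 127 over all control cells. KITLG stood at 0.799 CPM over all knockdown and 27.6 over all control cells, and TNC at 24.2 over all knockdown and 23.4 over all control cells. High knockdown cells were thus chosen by EDIL3 (559 CPM in high and 3.43 in low knockdown cells) and TNC (87.1 in high and 13.3 in low), with almost no KITLG (3.60 in high and 0.439 in low). All 3 genes were detected in 8 of the 210. With TNC left out of the choice, it stood at 32.5 CPM in 168 knockdown cells chosen on EDIL3 and KITLG and 24.1 in the 2353 under 100 CPM, and EDIL3 at 65.1 CPM (49.2 to 84.6) in 28 knockdown cells chosen on TNC and KITLG and 42.1 in the 2449 under 100 CPM. That EDIL3 level came from 2 of the 28 cells (7.14%), while 17.2% of the 2449 had an EDIL3 UMI, so the summed level and the share of cells point in opposite ways.

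Subclone-like cells made up most of the knockdown library, 95.7% of its high and 90.2% of its low cells, so composition and knockdown cannot be told apart between the libraries. In control cells, subclone-like cells had 67.3 CPM of EDIL3, 22.8 of TNC and 17.0 of KITLG, and the other cells had 135 of EDIL3, 23.4 of TNC and 29 of KITLG. High cells were 14.1% of the subclone-like control cells (11.2 to 17.5) and 22.7% of the others (21.4 to 24). KITLG in subclone-like cells stood at 0.672 CPM in the knockdown library and at 17.0 in the control library.

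Many genes took the same side in both libraries. In knockdown cells 1058 of 7944 measured genes were higher in high cells (13.3%) and 784 were lower (9.87%). Over the 7458 genes measured in both, 859 were higher in knockdown and 1064 in control cells, with 535 shared, which is 62.3% of the knockdown and 50.3% of the control genes. On the lower side 759 were called in knockdown and 918 in control cells, with 584 shared, which is 76.9% of the knockdown and 63.6% of the control genes. The comparisons share no cells. They share the direction of cycling, since G1 was assigned to 93.8% of high and 66.6% of low knockdown cells, and depth, with medians of 32081 UMIs in high and 42901.5 in low knockdown cells.

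All 12 genes of the lower side were at least 1.5-fold lower in high knockdown cells as well. UBE2C stood at 87.3 CPM in high and 499 in low knockdown cells, G0S2 at 8.66 in high and 77.5 in low, FOSL1 at 11.6 in high and 73.6 in low, and VSTM1 at 0.933 in high and 21.6 in low. Of the 12 higher genes 6 passed there too, among them TSC22D1, CA12, CLU, HIST1H2BD and IFI6. CLU stood at 4696 CPM in high and 1300 in low knockdown cells, a log2 ratio of 1.85, beside 1.89 in control cells, and TSC22D1 at 1061 in high and 392 in low knockdown cells, a log2 ratio of 1.44. PSAP stood at 1025 CPM in high and 711 in low knockdown cells. ADGRL3 and PTPRD were under 10 CPM in both classes of knockdown cells. Whether the ratios differ between the libraries was not tested.

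Of the G1 knockdown cells, 197 high cells were set against 1435 low cells, and 367 of 7708 genes were higher (4.76%) and 163 lower (2.11%). Of the higher 12 genes TSC22D1 and CLU passed there, with log2 ratios of 0.89 and 1.18, and of the lower 12 UBE2C, G0S2 and FOSL1. Over all phases 13.3% of all measured genes were higher in high knockdown cells and 9.87% lower. By list, knockdown cells then had 17 of 36 interferon-response genes higher and 2 lower. Lower were 30 of 37 S phase and 43 of 55 G2 and mitosis genes, 18 of 28 MYC targets and 9 of 18 cholesterol synthesis genes. TGF-beta and SMAD targets were higher in 4 of 24 cases in knockdown cells, against 16 of 24 in control cells, and ID3 stood at 870 CPM in high and 871 in low knockdown cells. NF-kB targets were higher in 1 and lower in 7 of 14 cases in knockdown cells, against 4 higher and none lower of 13 in control cells. Matrix genes were higher in 12 of 28 cases in knockdown cells, with COL6A1 at 33.3 CPM in high and 15.3 in low knockdown cells.

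**Figure D5:**
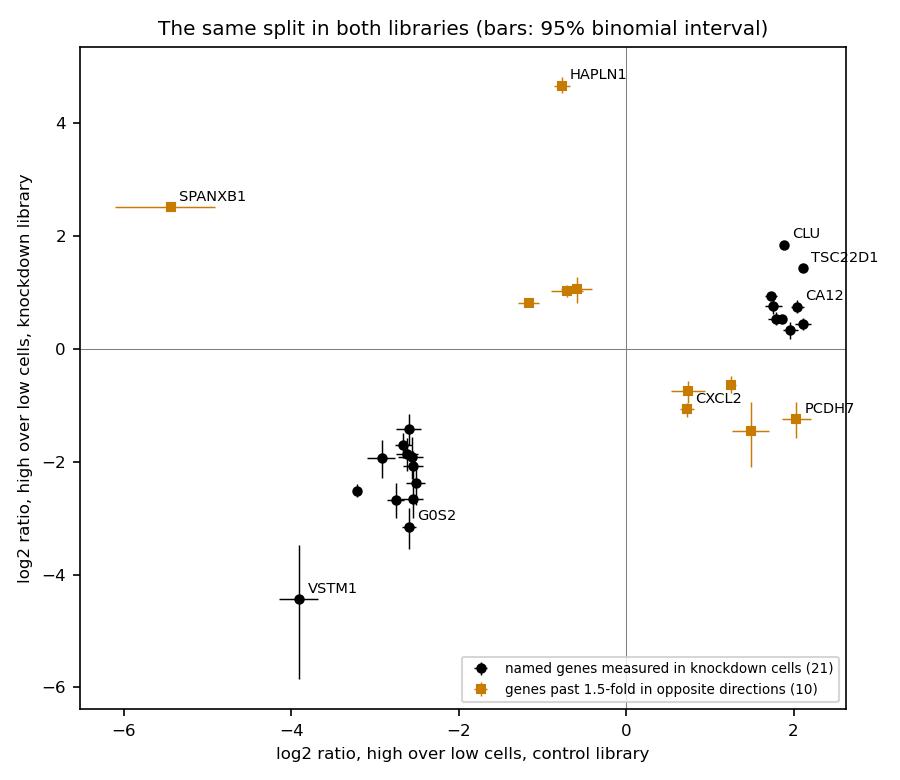
Log2 ratio of high over low cells in the control library (horizontal axis) and in the GANAB knockdown library (vertical axis), with 95% binomial intervals, for the 21 of 23 leading genes that were measured in knockdown cells (black circles) and 10 genes past 1.5-fold in opposite directions (orange squares). CLU lies at 1.85 in knockdown and 1.89 in control cells, CA12 at 0.75 in knockdown and 2.04 in control cells, and HAPLN1 at 4.67 in knockdown and -0.77 in control cells.

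EDIL3 has a neighbour on the same strand of chromosome 5 that behaved differently in the libraries. HAPLN1, which encodes a link protein that ties proteoglycans to hyaluronan, lies 218941 bases from EDIL3 by the GENCODE annotation. It stood at 140 CPM in high and 5.49 in low knockdown cells, and at 31.4 in high and 53.4 in low control cells, or 27.9 in high and 28.9 in low G1 control cells. In the knockdown library HAPLN1 had a UMI in 196 of 314 cells with at least 100 CPM of EDIL3, which is 62.4% (56.8 to 67.8), against 14 of 2224 cells without an EDIL3 UMI, which is 0.629% (0.345 to 1.05). In the control library it had a UMI in 48.9% of 2144 cells with at least 100 CPM of EDIL3, against 21.7% of 545 cells without an EDIL3 UMI. HAPLN1 UMIs were thus far more frequent in knockdown cells with EDIL3 than in those without it. Among the other measured genes within 1000000 bases of a selection gene, TMTC3 stood at 24.3 CPM in high and 16.1 in low control cells and DUSP6, a MAPK phosphatase gene near KITLG, at 123 in high and 76.7 in low, and the remaining 8 did not pass the rule in control cells.

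Over 193 windows of about 40 neighbouring measured genes, the median log2 ratio of high over low cells lay between -0.38 and 0.47 in knockdown cells. In control cells it lay between -0.34 and 0.37. The window values of the libraries had a Spearman correlation of 0.66, given as a description, since windows are not replicates and share the direction of cycling and depth. No window's median reached a 1.5-fold difference in control cells.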

How the data were processed

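Droplet single-cell libraries were made from 1 GANAB knockdown and 1 control sample. The authors deposited raw UMI counts per gene and barcode, made with Cell Ranger 3.1.0 on GRCh38 per the submitters' processing notes, with 33538 genes and all barcodes listed. Barcodes with at least 15000 UMIs and at most 20% mitochondrial UMIs were kept, and doublets were not called. Counts were summed per class of cells, and ratios carry exact conditional binomial intervals after addition of 0.5 counts, which cover counting error only. The knockdown library held 155064055 UMIs and the control library 239857346. A gene was measured at 10 CPM in either class and called at 1.5-fold, without a test. On simulated counts for 7452 genes, all 50 genes at each of 4 fold sizes (0.25, 0.5, 2 and 4) and none of 7252 unchanged genes were called. The simulated cells were Poisson draws from a shared profile. They had no differences in cycling, composition or choice of cells, so the simulation checks only that the rule was computed as stated.

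Named genes were the 12 with the largest ratio in each direction among genes of at least 50 CPM in the higher class, up to 4 members of each list by ratio, the receptor list and GANAB. Of the genes that this rule names, 2 are not reported here. ITGB3, KIT and other receptors come from that list; HAPLN1, DUSP6, VGF, MALAT1 and NEAT1 were named after their values were seen. The members and gene lists were chosen with earlier results of these data known. Phases and clusters (2000 variable genes, 30 components, 15 neighbours, resolution 0.5) used scanpy 1.11.5 and igraph 0.11.9 with numpy 2.4.6, scipy 1.17.1 and pandas 2.3.3 in Python 3.11.15. All 1037 list symbols were found, and 33456 genes had a position. Alternatives changed the depth, filters, thresholds and classes of cells.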

Additional observations from a re-analysis of the deposited data

Results flagged for a closer look

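For 10 genes the split into high and low cells went past 1.5-fold in opposite directions in the libraries, which is what brought them here. The difference between the libraries was not tested, and each direction rests on 1 library. The log2 ratio of high over low cells is given for knockdown cells and then for control cells.

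Of these genes 5 were lower in high knockdown cells and higher in high control cells. The nuclear receptor NR4A2 had -0.63 in knockdown and 1.25 in control cells, and its relative NR4A3 had -1.46 in knockdown and 1.49 in control cells. The protocadherin PCDH7 had -1.24 in knockdown and 2.03 in control cells. The chemokine CXCL2 had -1.07 in knockdown and 0.73 in control cells, and the transcription factor KLF4 had -0.75 in knockdown and 0.74 in control cells. In G1 control cells NR4A2 and NR4A3 had 0.09 each and CXCL2 had 0.31, all under 1.5-fold. NR4A2, NR4A3 and KLF4 are immediate early genes, and NR4A3 and KLF4 stood at no more than 10.3 CPM in control cells.

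The other 5 genes were higher in high knockdown cells and lower in high control cells. HAPLN1 had 4.67 in knockdown and -0.77 in control cells, and -0.05 in G1 control cells. Split by EDIL3 alone, HAPLN1 in control cells stood at 47.6 CPM in cells with at least 100 CPM of EDIL3 and 13.8 in cells without an EDIL3 UMI, so the opposite direction holds for the split by the 3 genes over all phases. The share of subclone-like cells enters this split by EDIL3, and its part was not tested. SPANXB1 had 2.51 in knockdown and -5.44 in control cells, and FAM133A had 0.82 in knockdown and -1.16 in control cells. Both of these genes mark the subclone-like cells, which were 95.7% of high and 90.2% of low knockdown cells and 7.35% of high and 18.6% of low control cells. The guidance ligand SEMA3A had 1.03 in knockdown and -0.70 in control cells, and the zinc finger gene MECOM had 1.06 in knockdown and -0.59 in control cells. SEMA3A was also among the leading genes of control cluster 4, where 87.2% of cells were subclone-like. Both were near the limit of 10 CPM in control cells, SEMA3A at 7.66 CPM in high and 12.4 in low cells and MECOM at 8.87 in high and 13.4 in low.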

How the results depend on the processing

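No paired analysis was possible because each group has 1 library, and for the same reason no replicate could be left out. Over 15 alternatives, none of the 24 leading genes came under 1.5-fold by ratio alone, though they were picked as the largest ratios of this same comparison. In G1 cells, with or without subclone-like cells, only 7 of the 12 lower genes were measured and passed. The others were under 10 CPM in both classes there. Of the recomputed counts, 23 of 30 stayed within 1.5 times of 1168 higher and 1028 lower genes. The exceptions on the higher side were 691 with all other control cells as the comparison, 502 in G1 cells and 299 with genes measured at 50 CPM. On the lower side they were 283 in G1 cells, 495 with genes measured at 50 CPM, 372 in G1 cells without subclone-like cells and 618 in cells of 30000 to 45000 UMIs. The share of high cells was 4.27% in knockdown and 9.01% in control cells at 500 CPM, 10.5% in knockdown and 38.7% in control G1 cells, and 9.80% in knockdown and 31.5% in control cells of 30000 to 45000 UMIs. In G1 cells without subclone-like cells it was 4.97% in knockdown and 40.6% in control cells, and without subclone-like cells over all phases it was 3.75% in the knockdown library. Of the lists, the genes that set the subclone-like cells apart changed the sign of their median from -0.70 to 0.99 without those cells, 1.11 at 50 CPM and 0.64 in G1 cells without them. Lists with a median near 0 also changed sign, such as secreted factors with 0.02 and a range from -0.21 to 0.25. Some further from 0 did so too. ATF4 and CHOP targets had -0.39 (-0.42 to 0.10), immediate early genes 0.43 (-0.06 to 0.51) and epithelial and urothelial genes 0.28 (-0.08 to 0.39). Beyond the fewer cells or genes each alternative keeps, the cause was not tested. The alternatives on G1 without subclone-like cells, on cells under 0.2% mitochondrial UMIs and on 30000 to 45000 UMIs were chosen after seeing the data. Depth limits what single cells show, since the median high cell held 17 UMIs of the selection genes.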

Other observations

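Among the genes with the largest ratio between high and low knockdown cells, by the same rule of size, were some outside the leading genes of control cells. The 4 given here took the same direction in both libraries, with CCL5 under 10 CPM in control cells. TXNIP, a thioredoxin-binding arrestin, stood at 54.8 CPM in high and 13.5 in low knockdown cells, and at 13.1 in high and 4.12 in low control cells. SCARA3, a scavenger receptor family member, stood at 58.9 CPM in high and 18.8 in low knockdown cells, and at 34.3 in high and 17.1 in low control cells. On the lower side the chemokine CCL5 stood at 50 CPM in high and 304 in low knockdown cells, and at 0.198 in high and 3.31 in low control cells. The noncoding RNA SFTA1P stood at 11.6 CPM in high and 54.5 in low knockdown cells, and at 19.8 in high and 99.0 in low control cells.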
